A study of Mus musculus with 24 samples.

Results

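The interferon-stimulated genes are 39 listed genes that type I or type II interferon is known to induce, taken from a table of 43430 mouse gene IDs by their symbols. All 39 were found, and 38 of them had enough counts to be tested. The exception was Ifi44, which reached at most 0.243 counts per 1000000 (CPM) in any library. The members were fixed by name, not by a measured value of these libraries.

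The libraries were bulk RNA-seq of alveolar macrophages, the phagocytes of the air spaces, sorted from C57BL/6J mice, with 4 libraries in each of 6 groups. Young mice were 8 to 12 weeks old and old mice were over 18 months old. Naive mice gave a Siglec F-high sort only. Mice studied 28 days after asbestos, a fibre that scars the lung, gave a Siglec F-high and a Siglec F-low sort. Young and old mice were each represented by these 3 kinds of library, which makes the 6 groups. All groups share the strain, and the labels name no deletion, transgene or drug given to any of them. Asbestos mice were set against naive mice, not against mice given a vehicle. The labels did not say whether equally numbered sorts came from one animal, so p-values measure the spread between these libraries.

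Type I interferons bind the Ifnar1 and Ifnar2 receptor and act through Stat2 and Irf9 at interferon-stimulated response elements, while interferon-gamma binds Ifngr1 and Ifngr2 and acts at gamma-activated sites. The induced genes include RNA sensors, enzymes that block viral replication, GTPases that attack pathogen vacuoles and the ubiquitin-like protein Isg15 with its enzymes. Alveolar macrophages are known as an early source of type I interferon in the virus-infected lung.

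The 22 better libraries held 13423080 to 18124526 counts on 17069 to 18820 genes. Only 12528 genes were detected by the 11889517 counts of young asbestos Siglec F-high replicate 3, and 8 of the 39 interferon-stimulated genes stood at 0 in it. Of the 3894699 counts in old asbestos Siglec F-high replicate 3, 50.1% lay on Gm42418, Gm26917 and Lars2, against 0.186% to 0.493% in the 22 better libraries. Counts of called genes are therefore given with all 24 libraries and with the 22 that leave out these 2 poor libraries, and the set is named beside each fold change. The resident alveolar macrophage markers summed to between 15100 and 66800 CPM in the 22 libraries, and Siglecf itself was at 437 to 614 CPM in their Siglec F-high sorts against 148 to 294 CPM in the Siglec F-low sorts. In bulk libraries, fewer cells of a type and less RNA per cell cannot be told apart.

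The sequences that carry the interferon response were looked for first, in RefSeq promoter windows (GRCm38.p6) from 250 bases before to 50 bases after a start. The interferon-stimulated response element was searched as GAAANNGAAA on both strands and the gamma-activated site as TTCNNNGAA, which reads the same way on both strands; the matches may overlap. Of the 39 genes, 29 had a window, 14 of these held the response element and 6 held the gamma-activated site. Counted by window, 15 of the 34 windows of these genes held the response element and 6 the gamma-activated site. Among all 32851 windows, 3.44% held the response element and 8.3% the gamma-activated site. A match is a description of letters and no proof of binding. The stretches below lie before the RefSeq start and run 5′ to 3′ on the gene's strand, with the matches in capitals. Ifi209, called between the sorts in both ages, had a window without either motif and is not printed. The first 4 stretches, all with a match, belong to genes that differed between the 2 sorts:
Oas1a (chr5:120907526-120907665, minus strand): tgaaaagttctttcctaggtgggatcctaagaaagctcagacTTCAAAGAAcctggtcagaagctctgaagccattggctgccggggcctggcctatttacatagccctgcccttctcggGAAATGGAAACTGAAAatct
Gbp3 (chr3:142559904-142560025, plus strand): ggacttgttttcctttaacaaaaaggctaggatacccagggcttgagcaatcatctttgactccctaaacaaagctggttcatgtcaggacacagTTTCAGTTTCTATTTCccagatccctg
Irgm1 (chr11:48871421-48871560, minus strand): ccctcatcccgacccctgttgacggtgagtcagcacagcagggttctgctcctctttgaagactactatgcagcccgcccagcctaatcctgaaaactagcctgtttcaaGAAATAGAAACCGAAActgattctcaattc
Bst2 (chr8:71537473-71537612, minus strand): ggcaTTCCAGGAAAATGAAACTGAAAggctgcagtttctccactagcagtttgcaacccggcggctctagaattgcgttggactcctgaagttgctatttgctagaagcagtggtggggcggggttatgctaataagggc

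Oas1a held 2 overlapping response elements, the nearer at 14 bases before the start, and a gamma-activated site at 98 bases. Gbp3 held 2 overlapping response elements on the opposite strand. The Irgm1 stretch, also with 2 overlapping elements, lies in the first exon of 1 noncoding transcript model in GENCODE M21. In Bst2 a gamma-activated site overlaps the first of 2 response elements. Oasl1, Oasl2, Cmpk2, Irf7, Irf9 and Dtx3l, highest of their group in replicate 4 of both young asbestos sorts among the 22 libraries, had windows without either motif. The next 4 stretches, all with a match, belong to other genes with that pattern and are shown for it:
Isg15 (chr4:156200819-156200958, minus strand): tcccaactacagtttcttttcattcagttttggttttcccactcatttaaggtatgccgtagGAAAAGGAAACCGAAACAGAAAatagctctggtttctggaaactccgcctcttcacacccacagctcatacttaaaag
Ifit1 (chr19:34640749-34640870, plus strand): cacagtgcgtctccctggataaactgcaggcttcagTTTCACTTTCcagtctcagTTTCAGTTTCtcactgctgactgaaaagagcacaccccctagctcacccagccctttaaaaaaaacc
Oas3 (chr5:120777662-120777799, minus strand): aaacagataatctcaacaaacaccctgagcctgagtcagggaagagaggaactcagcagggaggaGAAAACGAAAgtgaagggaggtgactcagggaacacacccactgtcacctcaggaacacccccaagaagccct
Rsad2 (chr12:26456453-26456592, minus strand): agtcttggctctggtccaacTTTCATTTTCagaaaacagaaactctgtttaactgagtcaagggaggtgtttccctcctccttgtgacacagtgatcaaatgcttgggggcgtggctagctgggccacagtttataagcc

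Isg15 held 3 overlapping response elements and Ifit1 held 2 separate ones, at 104 and 85 bases before the start. Oas3 and Rsad2 held 1 each. The last 2 stretches show the contrast: Irf1, whose only match was the gamma-activated site, and Trim25, whose window held neither motif although it was the most abundant of the 39 genes:
Irf1 (chr11:53769874-53770013, plus strand): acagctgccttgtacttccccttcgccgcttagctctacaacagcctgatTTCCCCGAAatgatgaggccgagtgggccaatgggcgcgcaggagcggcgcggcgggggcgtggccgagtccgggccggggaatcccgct
Trim25 (chr11:88999263-88999375, plus strand): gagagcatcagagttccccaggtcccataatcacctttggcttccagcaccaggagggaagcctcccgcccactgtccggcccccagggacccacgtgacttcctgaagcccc

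Levels of the 39 genes spanned a wide range. Per kilobase of exons, Trim25, the ubiquitin ligase that activates the RNA sensor RIG-I, was highest at 77.5 ± 22.8 CPM (SD, n = 22). Bst2, the tethering protein that holds budding virus on the cell, followed at 39.1 ± 6.78 CPM per kilobase, and Ifi35 at 15.9 ± 1.94. Among the classical markers of an interferon response, Isg15 stood in the middle of the order, at rank 21 with 2.98 CPM per kilobase. Ifit1 (0.426), Rsad2 (0.402), Mx1 (0.344) and Mx2 (0.154) were among the 10 lowest. Mx2 is annotated as a polymorphic pseudogene. Trim25 alone took 30.5% to 54.1% of the counts of all 39 genes in the 22 libraries. All 39 together took 0.095% to 0.149% of a library's counts.

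**Figure D1:**
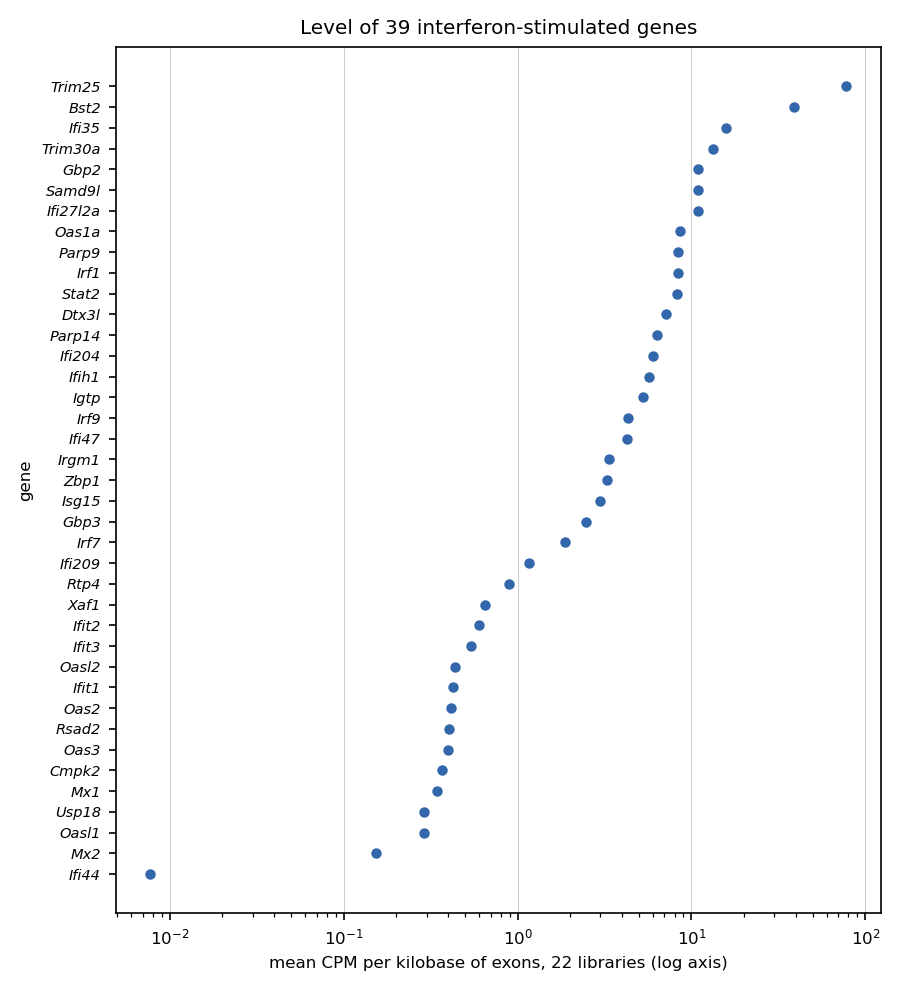
Mean CPM per kilobase of exons over 22 libraries (log axis) for each of the 39 interferon-stimulated genes, 1 point per gene. Trim25 stands highest at 77.5, Ifit, Oas, Mx and Rsad2 genes lie mostly under 1, and Ifi44 is lowest.

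Over the 22 libraries the within-group SD of log2 CPM was widest for Ifit3 (1.02), Ifit1 (0.79), Rsad2 (0.77) and Oas3 (0.72), and narrowest for Trim30a (0.07) and Ifih1 (0.07). These genes were singled out after their values were seen. The low genes therefore needed large differences to pass a test, and Trim30a and Ifih1 small ones.

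**Figure D2:**
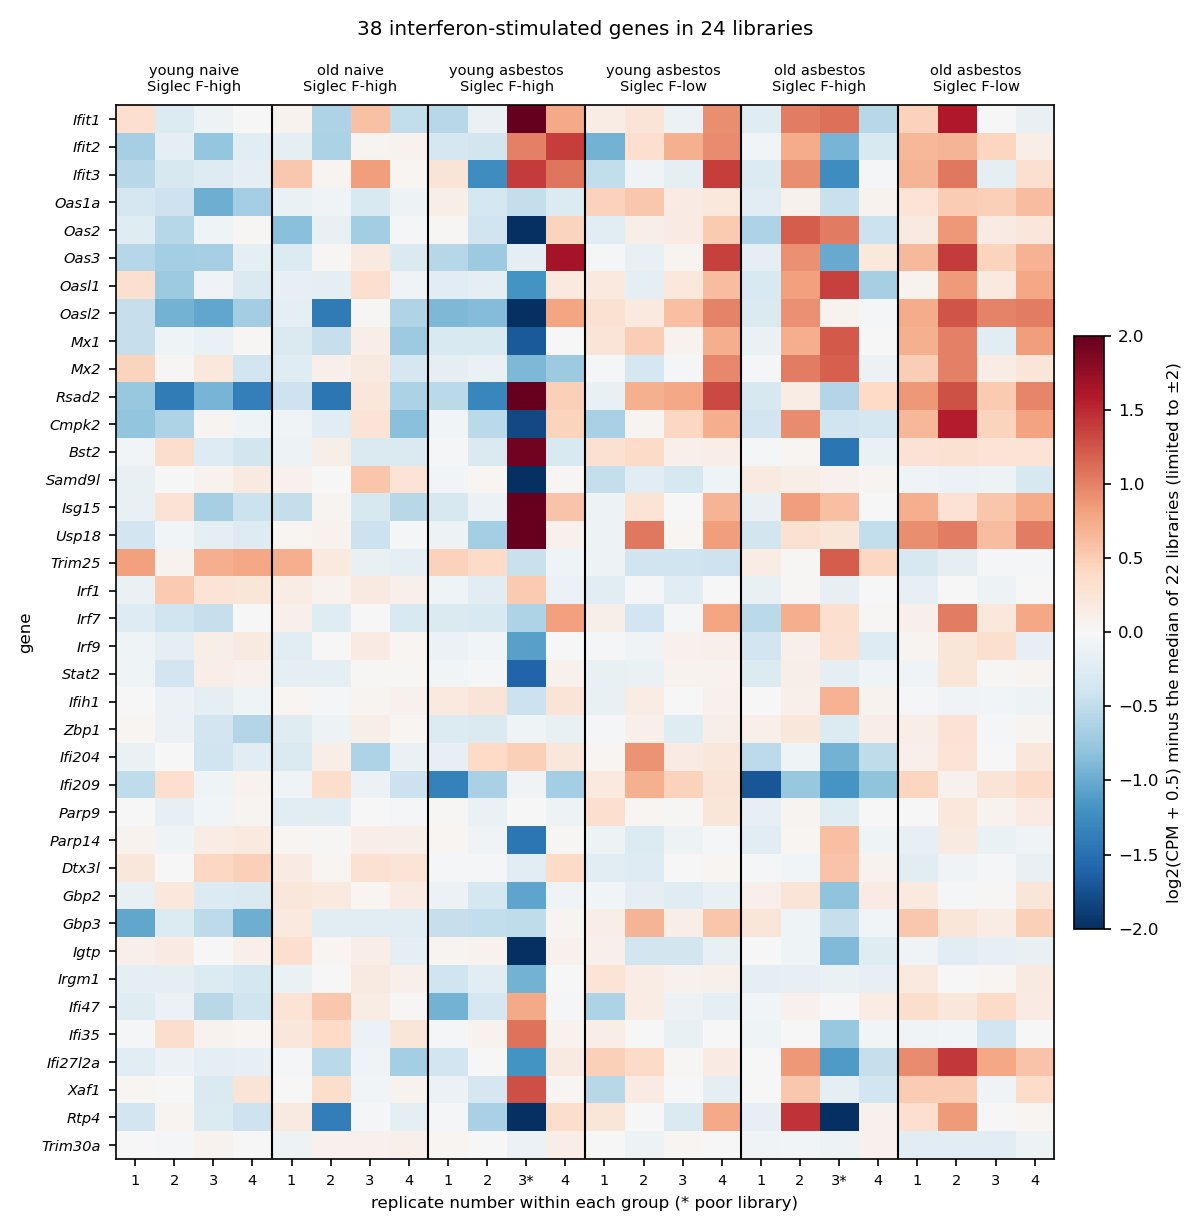
Colour gives log2(CPM + 0.5) minus the gene's median over 22 libraries, limited to 2 in either direction, for 38 genes (rows, by role) in 24 libraries (columns, by group and replicate; a star marks a poor library). Both starred columns depart from their neighbours, and replicate 4 of both young asbestos sorts and replicate 2 of both old asbestos sorts are red in the rows of Ifit1, Ifit2, Ifit3 and Oas3.

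The first comparison set the Siglec F-low against the Siglec F-high sort of young asbestos mice. The series text speaks of resident and of monocyte-derived cells, while the labels give the sorts by Siglec F only. With 24 libraries 4 of 38 genes were called, all higher in Siglec F-low: Ifi209, Gbp3, Oas1a and Irgm1 (edgeR quasi-likelihood test, Benjamini-Hochberg adjusted p under 0.05 over 13467 genes). Over all genes tested, 4.99% were called. With 22 libraries 7 of 38 were called, 5 higher and 2 lower, where 12% of all genes were called. The median log2 fold change of the 38 genes was 0.12 with 24 and 0.21 with 22 libraries, against 0.00 for all genes tested in both.

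Ifi209, a DNA-binding member of the Ifi200 family (chr1:173630917-173647928, plus strand, GRCm38), differed most. Its values in Siglec F-low were 4.99, 7.36, 6.14 and 5.25 CPM (replicates 1 to 4), against 1.39, 2.58, 4.06 and 2.50 CPM in Siglec F-high, where the third is the poor library. All 4 Siglec F-low libraries lay above all 4 Siglec F-high libraries. The log2 fold change was 1.19 ± 0.29 (SE, edgeR adjusted p 0.0177) with 24 libraries and 1.46 ± 0.28 (adjusted p 0.00102) with 22. The call was lost in 1 of 8 fits that each left out 1 library of the 24 (highest adjusted p 0.0699) and in 0 of 7 with the 22.

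Oas1a, which makes the 2-5A messenger that activates RNase L (chr5:120896256-120907521, minus strand), stood at 21.7, 22.99, 17.7 and 18.2 CPM in Siglec F-low and at 16.99, 12.2, 11.1 and 12.9 CPM in Siglec F-high. The groups did not overlap, although Siglec F-high replicate 1 came within 1 CPM of the lowest Siglec F-low library. The log2 fold change was 0.60 ± 0.16 (edgeR adjusted p 0.0283) with 24 libraries and 0.52 ± 0.15 (0.0200) with 22. Oas1a has the near-identical neighbour Oas1g, so its counts are uncertain where the counting could not separate them.

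Gbp3, a guanylate-binding GTPase (chr3:142560026-142573209, plus strand), stood at 8.90, 13.3, 8.91 and 12.1 CPM in Siglec F-low and at 5.73, 5.62, 5.51 and 8.36 CPM in Siglec F-high. Again the groups did not overlap, and Siglec F-high replicate 4 was the nearest. The log2 fold change was 0.77 ± 0.21 (edgeR adjusted p 0.0304) with 24 libraries and 0.72 ± 0.20 (0.0210) with 22. Irgm1, a GTPase of autophagy in infected macrophages (chr11:48861968-48871683, minus strand), stood at 24.1, 22.1, 21.1 and 21.3 CPM against 14.9, 16.9, 10.1 and 20.1 CPM. Its log2 fold change was 0.51 ± 0.14 (0.0358) with 24 libraries and 0.36 ± 0.10 (0.0179) with 22.

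With 22 libraries Bst2 was also higher, and Trim25 and Ifih1 were lower in the Siglec F-low sort. Bst2 (chr8:71534255-71537456, minus strand) stood at 42.4, 45.0, 36.8 and 37.7 CPM in Siglec F-low, and at 33.5, 27.9 and 27.8 CPM in Siglec F-high replicates 1, 2 and 4. The poor replicate 3 held 132.5 CPM of it, above every other library of the series. Bst2 was therefore -0.45 ± 0.36 (edgeR adjusted p 0.507) with 24 libraries and 0.44 ± 0.13 (0.0310) with 22, a change of sign that this library decides.

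Trim25 (chr11:88999376-89020293, plus strand) stood at 371, 300.0, 301 and 298 CPM in Siglec F-low and at 547, 519 and 375 CPM in Siglec F-high replicates 1, 2 and 4, with 290.4 CPM in the poor library. Without that library the groups did not overlap, but the gap between the highest Siglec F-low and the lowest Siglec F-high library was narrow. The log2 fold change was -0.45 ± 0.25 (edgeR adjusted p 0.303) with 24 libraries and -0.60 ± 0.19 (0.0383) with 22. Ifih1, the cytosolic sensor of long double-stranded RNA also known as MDA5 (chr2:62595798-62646255, minus strand), stood at 41.4, 50.8, 45.4 and 48.8 CPM against 52.6, 55.02 and 55.2 CPM. Its log2 fold change was -0.08 ± 0.14 (0.787) with 24 libraries and -0.22 ± 0.07 (0.0388) with 22, the smallest size among the calls of this comparison. Every call of this comparison with 22 libraries except Ifi209 was lost in 3 to 5 of 7 fits that each left out 1 library.

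**Figure D3:**
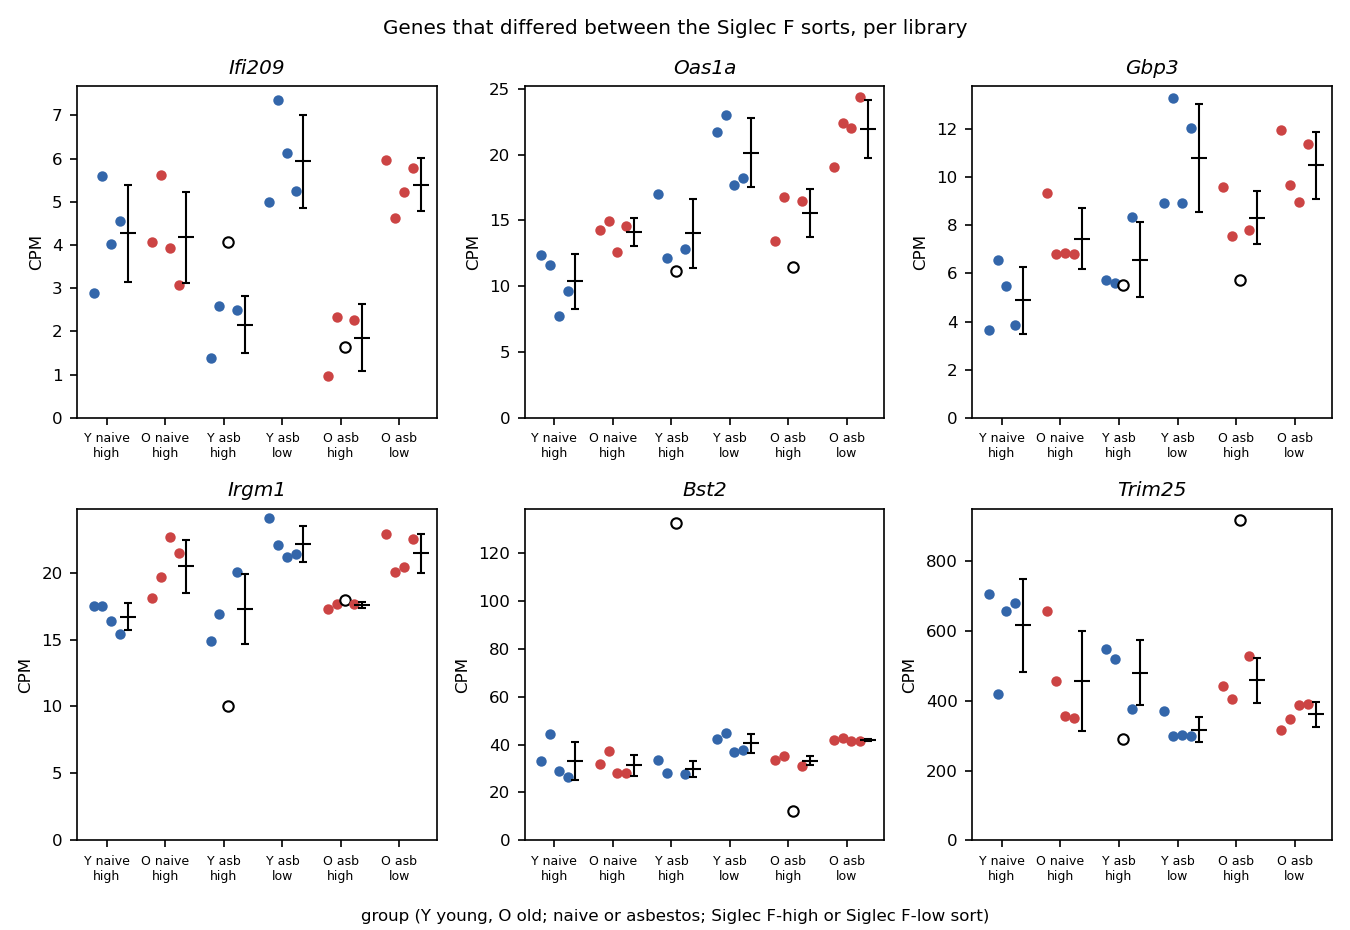
CPM of 6 genes (panels) in each library (points; blue young, red old, open circles the 2 poor libraries) of the 6 groups, with the mean and SD without poor libraries as a bar. In Ifi209, Oas1a, Gbp3 and Irgm1 all young Siglec F-low points lie above the young asbestos Siglec F-high points, and the open circle of Bst2 at 132.5 CPM shows the library that turns its sign.

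The same comparison in old asbestos mice called Ifi209 alone with 24 libraries (1 of 38, where 4.3% of all genes were called) and Ifi209, Usp18 and Oas1a with 22 (3 of 38, all higher, where 11.6% of all genes were called). The median log2 fold change of the 38 genes was 0.29 with both sets, against 0.00 for all genes with 24 libraries and -0.01 with 22. Ifi209 stood at 5.97, 4.63, 5.22 and 5.78 CPM in Siglec F-low and at 0.964, 2.34, 1.63 and 2.26 CPM in Siglec F-high, where the third is the poor library. The groups lay well apart, with no Siglec F-high library above 2.34 CPM.

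The log2 fold change of Ifi209 was 1.56 ± 0.32 (edgeR adjusted p 0.00546) with 24 libraries and 1.54 ± 0.29 (0.000942) with 22, and the call held in 8 of 8 and 7 of 7 fits that each left out 1 library. Usp18, the protease that removes Isg15 and dampens the type I receptor (chr6:121245906-121270917, plus strand), stood at 1.62, 1.76, 1.21 and 1.76 CPM against 0.362, 0.879 and 0.291 CPM in Siglec F-high replicates 1, 2 and 4. Its log2 fold change was 1.56 ± 0.68 (edgeR adjusted p 0.255) with 24 libraries and 1.60 ± 0.47 (0.0279) with 22, but a noncoding gene on the opposite strand overlaps it. Oas1a stood at 19.1, 22.4, 22.02 and 24.4 CPM against 13.4, 16.8 and 16.4 CPM, with a log2 fold change of 0.56 ± 0.16 (0.0542) with 24 libraries and 0.49 ± 0.15 (0.0287) with 22. The call of Oas1a with 22 libraries was lost in 5 of 7 fits that each left out 1 library (edgeR adjusted p up to 0.167) and that of Usp18 in 3 of 7 (up to 0.139).

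In the old asbestos sorts of the 22 libraries, equally numbered libraries deviated together. The correlation of their deviations over all genes was 0.15 to 0.205 for 3 numbers, all above a limit of 0.1. The fit with a replicate block is therefore given beside this result. Its block holds an effect for each replicate number that all 6 groups share, so it is not a pairing within the old sorts. Between old and young asbestos Siglec F-high libraries of the 22, equal numbers correlated at -0.0837 to 0.0346. With the block 8 of 38 genes were called, where 14.3% of all genes were. The block called Ifi209, Usp18, Oas1a, Bst2 (0.37 ± 0.10, edgeR adjusted p 0.0199), Ifi204 (0.61 ± 0.12, 0.00132) and Ifi27l2a (0.79 ± 0.25, 0.0378) as higher, and Trim30a (-0.19 ± 0.06, 0.0310) and Samd9l (-0.31 ± 0.10, 0.0496) as lower. Ifi204 is a DNA sensor of the Ifi200 family (chr1:173747293-173766943, minus strand). It stood at 22.6, 25.4, 20.8 and 24.6 CPM in Siglec F-low against 14.3, 19.7 and 14.6 CPM in Siglec F-high replicates 1, 2 and 4. These groups did not overlap, with replicate 2 the highest in both sorts.

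No gene of the 38 passed the test of whether the sort difference itself differed with age, with 24 or with 22 libraries (0 of 38 at an unadjusted p under 0.05 in both edgeR fits, and 0 of 38 with DESeq2). Over all genes 0% and 0.0147% were called. The smallest p with 22 libraries was that of Zbp1, whose interaction was -0.28 ± 0.19 (edgeR adjusted p 0.892). The median SE of the interaction was 0.28 on the log2 scale with 22 libraries, so differences of that size were not detectable.

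Markers of monocyte-derived macrophages moved with the sort. Their 7 genes summed to 1050 to 1100 CPM in young Siglec F-low against 183 to 222 CPM in young asbestos Siglec F-high, and to 1580 to 2220 CPM against 349 to 428 CPM in the old groups without the poor library. None of the 7 stood at 0 in every library of a group. Resident alveolar macrophage markers summed higher in Siglec F-low as well, at 36000 to 47600 CPM against 23500 to 27400 CPM in the young groups without the poor library. Most of that sum is Chil3, a chitinase-like protein, at 30930 to 41760 CPM against 18240 to 21780 CPM. Without the poor library, Itgax (2099 to 2207 against 1714 to 1848 CPM) and Car4 (835.6 to 1121 against 629.2 to 816.7 CPM) also lay higher. Siglecf, Fabp1 and Krt79 lay lower in every young Siglec F-low library than in any young asbestos Siglec F-high library. Marco, Pparg and Ear2 overlapped between these groups. The part of these markers in the differences of Ifi209, Oas1a, Gbp3 and Irgm1 was not tested. Plasmacytoid dendritic cells, the known specialists of type I interferon release, had 5 listed markers. Siglech did not exceed 0.695 CPM in any library, Klk1 0.175 CPM, Cox6a2 3.28 CPM and Ccr9 4.90 CPM. Runx2 stood at 54.4 to 144.6 CPM and made up nearly all of the sum, which was 57.2 to 69.9 CPM in young Siglec F-low against 84.4 to 96.9 CPM in young asbestos Siglec F-high libraries. In the old groups it was 58.5 to 65.8 CPM against 79.4 to 92.5 CPM without the poor library.

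Age was compared first in naive Siglec F-high cells. With 24 libraries 0 of 38 genes were called, where 2.03% of all genes were, with 4 of 38 at an unadjusted p under 0.05 and 0 called by DESeq2. With 22 libraries Oas1a, Irgm1 and Ifi47 were called, all higher in old mice (3 of 38, where 8.03% of all genes were called). All libraries of these 2 groups are in both fits, which differ in the shared estimate of the spread and in the genes tested. The median log2 fold change of the 38 genes was 0.06 with both sets, against -0.01 and 0.00 for all genes.

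Oas1a stood at 14.3, 14.98, 12.6 and 14.6 CPM in old naive mice and at 12.4, 11.7, 7.77 and 9.65 CPM in young naive mice. The groups did not overlap, by a margin of less than 1 CPM. Its log2 fold change was 0.45 ± 0.14 with 22 libraries (edgeR adjusted p 0.0473). Ifi47, an interferon-gamma GTPase (chr11:49076587-49096974, plus strand), stood at 12.9, 15.5, 11.8 and 10.7 CPM against 8.85, 9.74, 7.05 and 7.91 CPM. Its log2 fold change was 0.61 ± 0.17 (0.0304), with every old library above every young one.

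Irgm1 stood at 18.1, 19.7, 22.7 and 21.4 CPM in old naive mice and at 17.5, 17.5, 16.4 and 15.4 CPM in young naive mice, and the log2 fold change was 0.30 ± 0.09 (edgeR adjusted p 0.0450). Again the groups did not overlap. All 5 interferon-gamma GTPases of the list had log2 fold changes above 0 in this comparison, with a median of 0.30. Gbp2, Gbp3 and Igtp did not pass, and Igtp had a mean of 11.65 CPM in both groups. The call of Oas1a was lost in 5 of 8 fits that each left out 1 of the 22 libraries, that of Irgm1 in 6 of 8 and that of Ifi47 in 4 of 8 (adjusted p up to 0.183, 0.143 and 0.111).

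In asbestos Siglec F-high cells the age comparison called 1 of 38 genes with either set, and not the same gene. With 24 libraries (4.76% of all genes called) it was Ifi204, lower in old mice with -0.70 ± 0.20 on the log2 scale (edgeR adjusted p 0.0499). Ifi204 stood at 14.3, 19.7, 10.6 and 14.6 CPM in old and 18.6, 27.8, 29.5 and 24.6 CPM in young mice, so old replicate 2 overlapped young replicate 1. With 22 libraries it was Gbp2, the guanylate-binding protein (chr3:142620602-142638008, plus strand), higher in old mice by 0.37 ± 0.11 (0.0489), where 7.32% of all genes were called. Gbp2 stood at 29.5, 32.8 and 30.9 CPM against 25.1, 21.3 and 26.2 CPM, and the 2 poor libraries held 15.5 and 12.96 CPM. The call of Gbp2 was lost in all 6 fits that left out a further library of these groups, and that of Ifi204 in 5 of 8.

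In asbestos Siglec F-low cells 0 of 38 genes were called by edgeR with 24 libraries (1.29% of all genes) and 0 with 22 (7.21%), although these groups hold no poor library. At an unadjusted p under 0.05 stood 2 of 38 and 5 of 38, and DESeq2 called 0. The median log2 fold change was 0.14 with 22 libraries, against 0.00 for all genes, and 30 of 38 genes had values above 0. With a median SE of 0.18, differences of that size in a single gene were within the error.

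The response to asbestos in Siglec F-high cells was compared with naive mice of the same age. In young mice 0 of 38 genes were called by edgeR with 24 libraries (1.9% of all genes; 8 of 38 at an unadjusted p under 0.05), while DESeq2 called 2 of 38, Rsad2 and Isg15, as higher (4.41% of all genes called). Both genes had their highest value in the poor library, and DESeq2 was not run without it. Rsad2, the radical SAM enzyme viperin, stood at 0.857, 0.298, 9.96 and 2.25 CPM in young asbestos Siglec F-high, where the third is the poor library, and at 0.669, 0.255, 0.535 and 0.271 CPM in naive mice. Isg15 stood at 1.5, 1.79, 15.7 and 3.18 CPM against 1.75, 2.55, 1.07 and 1.36 CPM. Without the poor library their log2 fold changes were 1.31 ± 0.61 (edgeR adjusted p 0.253) and 0.36 ± 0.34 (0.666).

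With 22 libraries 3 of 38 genes were called in young mice, where 5.06% of all genes were. Ifih1 was higher after asbestos, at 52.6, 55.02 and 55.2 CPM in replicates 1, 2 and 4 against 46.2, 42.1, 40.6 and 43.1 CPM in naive mice. Its groups lay apart, the log2 fold change was 0.33 ± 0.07 (edgeR adjusted p 0.00533), and the call held in 7 of 7 fits that each left out 1 library. The poor library held 33.8 CPM, and with it the value was not called. Irf1, a transcription factor of the interferon-gamma response (chr11:53770014-53778374, plus strand), was lower, at 30.9, 28.2 and 30.4 CPM against 30.1, 47.5, 39.6 and 38.8 CPM. Naive replicate 1 overlapped the asbestos libraries, and the log2 fold change of -0.39 ± 0.11 (0.0345) kept its call in 1 of 7 such fits.

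Ifi209 was lower after asbestos in both ages with 22 libraries, and was the only gene called in old mice (1 of 38, where 4.12% of all genes were called). In young naive mice it stood at 2.88, 5.60, 4.03 and 4.55 CPM, and in old naive mice at 4.08, 5.61, 3.92 and 3.08 CPM. The asbestos Siglec F-high values given above, 1.39 to 2.58 CPM in young and 0.964 to 2.34 CPM in old mice, lay below all of these. The log2 fold change was -0.98 ± 0.28 (edgeR adjusted p 0.0447) in young and -1.17 ± 0.29 (0.0238) in old mice. Since the naive and the Siglec F-low libraries are both set against the same asbestos Siglec F-high libraries, the 2 differences of Ifi209 share those libraries. The young call held in 1 of 7 and the old call in 4 of 7 fits that each left out 1 library.

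With 24 libraries no gene was called in old mice by edgeR (0 of 38, where 0.78% of all genes were called; 1 of 38 at an unadjusted p under 0.05), and DESeq2 called Ifi209 (1 of 38, where 1.84% of all genes were called). The genes of the IFIT, OAS and Mx families had wide, uncalled values in this comparison: Oasl2, an OAS-like protein, was 0.92 ± 0.46 (edgeR adjusted p 0.300) in old and 0.85 ± 0.48 (0.378) in young mice with 22 libraries. The test of whether asbestos acted differently with age called 0 of 38 genes with 24 libraries (4 at an unadjusted p under 0.05) and 0 with 22 (1 such gene), where 0% and 0.0147% of all genes were called, and DESeq2 called 0. That 1 gene was Ifih1, whose interaction was -0.31 ± 0.10 (edgeR p 0.00464, adjusted p 0.665).

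B cell markers moved with asbestos and age in the Siglec F-high libraries. Their 7 genes summed to 86.8 to 171 CPM in young naive, 211 to 405 CPM in old naive, 38.5 to 56.8 CPM in young asbestos and 49.0 to 168 CPM in old asbestos libraries without the poor one. None of the 7 stood at 0 in every library of a group. Their part in the values of Irf1, Ifi47 and Oas1a was not tested.

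**Figure D4:**
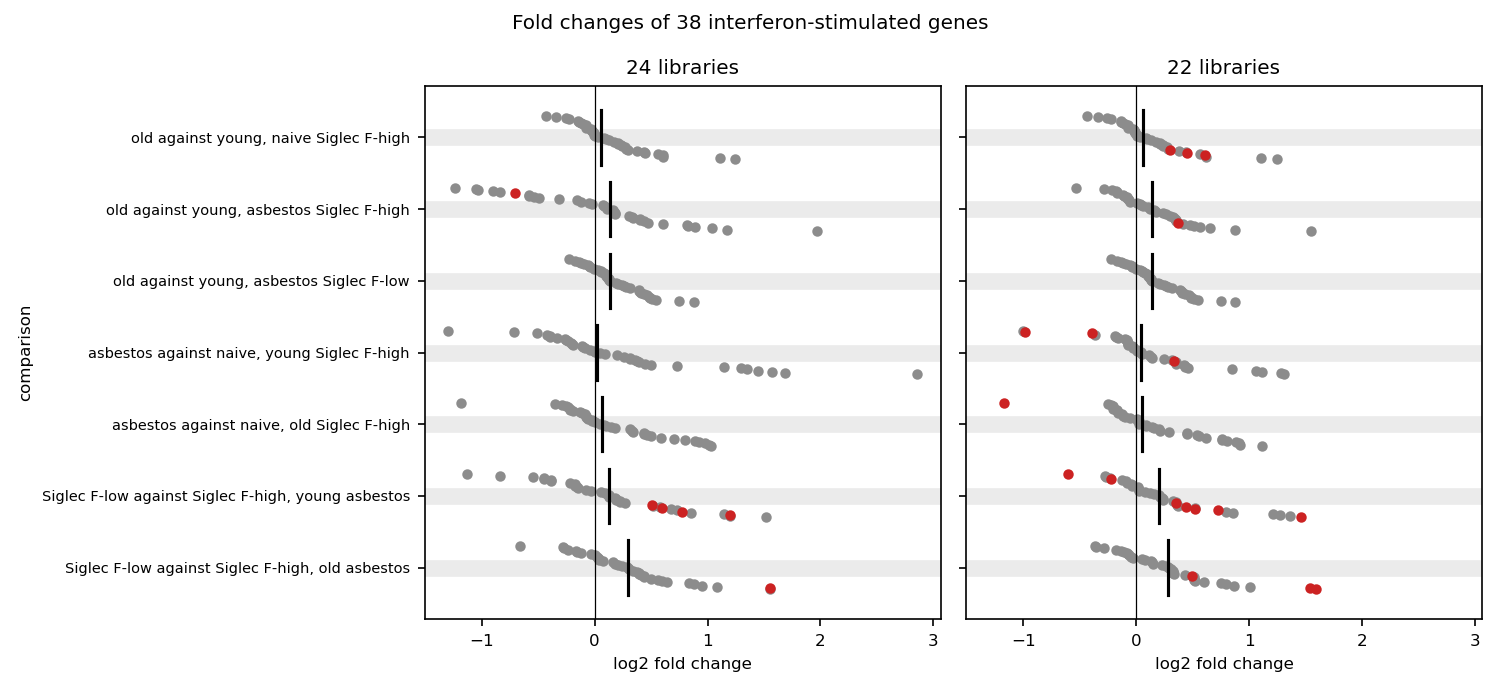
Log2 fold changes of 38 genes (points) in 7 comparisons (rows), with 24 libraries on the left and 22 on the right; red points were called at an adjusted p under 0.05 and the black bar is the median of the 38. The points scatter more widely on the left in the rows with asbestos Siglec F-high cells, and more of them are red on the right.

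A pattern among libraries was singled out after the values were seen. In the 22 libraries, young asbestos replicate 4 was the highest of its group in 28 of 38 genes in Siglec F-high (of 3 libraries) and in 20 of 38 in Siglec F-low (of 4 libraries), and in 16 genes it was highest in both sorts. Old asbestos replicate 2 was highest in 30 of 38 and 21 of 38, and in both sorts in 20. Over all 13629 genes tested with 22 libraries, these libraries were the highest of their group in 34.7%, 23.3%, 34.8% and 28.9%, in the same order. The share highest in both sorts was not counted over all genes, so the 16 and the 20 have no background beside them. Ifit1, Ifit2, Ifit3, Oas2, Oas3, Oasl1, Oasl2, Mx1, Cmpk2, Irf7, Zbp1 and Rtp4 belong to both sets.

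Oas3, the largest 2-5A synthetase, stood at 1.29, 1.09 and 7.86 CPM in replicates 1, 2 and 4 of young asbestos Siglec F-high, and at 2.09, 1.88, 2.24 and 6.28 CPM in Siglec F-low. In the old asbestos mice it stood at 1.81, 4.45 and 2.55 CPM in Siglec F-high replicates 1, 2 and 4, and at 3.65, 6.46, 3.08 and 3.77 CPM in Siglec F-low. In each age 1 replicate number stands above the rest in both sorts. Ifit3, an RNA-binding antiviral protein, stood at 2.00 and 2.57 CPM in young replicate 4 against at most 0.911 CPM in the other young asbestos libraries of the 22, and at 1.758 and 1.956 CPM in old replicate 2 against at most 1.39 CPM in the other old asbestos libraries. Irf7, the transcription factor that amplifies type I interferon, had 11.6 and 11.4 CPM in young replicate 4 and at most 6.95 CPM in the other young asbestos libraries of the 22, and 10.8 and 13.4 CPM in old replicate 2. Old Siglec F-low replicate 4 came second for Irf7, at 11.2 CPM.

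Being highest was not limited to low genes. Stat2, Ifih1, Gbp2, Irgm1 and Ifi35, at 5 CPM or more, were highest in young Siglec F-high replicate 4 and in old Siglec F-high replicate 2. Larger departures lay mostly among the genes at a mean under 5 CPM. Of 16 such genes, 12 stood more than 1.5 times above the mean of the other libraries of their group in young Siglec F-high replicate 4, 12 in young Siglec F-low replicate 4, 14 in old Siglec F-high replicate 2 and 9 in old Siglec F-low replicate 2. Of the 22 genes at 5 CPM or more, 2, 1, 2 and 2 did. Of all 4057 genes tested at a mean under 5 CPM, 16.4%, 17.1%, 19% and 19.8% did. The share of all genes at 5 CPM or more that did was not counted. Beside this, Ifnb1 was at 0 in these 4 libraries and Ifng at no more than 0.261 CPM. The 5 plasmacytoid dendritic cell markers summed to 84.4 and 64.9 CPM in young replicate 4 (Siglec F-high and Siglec F-low) and to 90.2 and 65.8 CPM in old replicate 2. The other libraries of the 22 in these groups had 91.8 to 96.9, 57.2 to 69.9, 79.4 to 92.5 and 58.5 to 63.8 CPM. The labels name no batch, and what the libraries with a common number share was not tested.

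**Figure D5:**
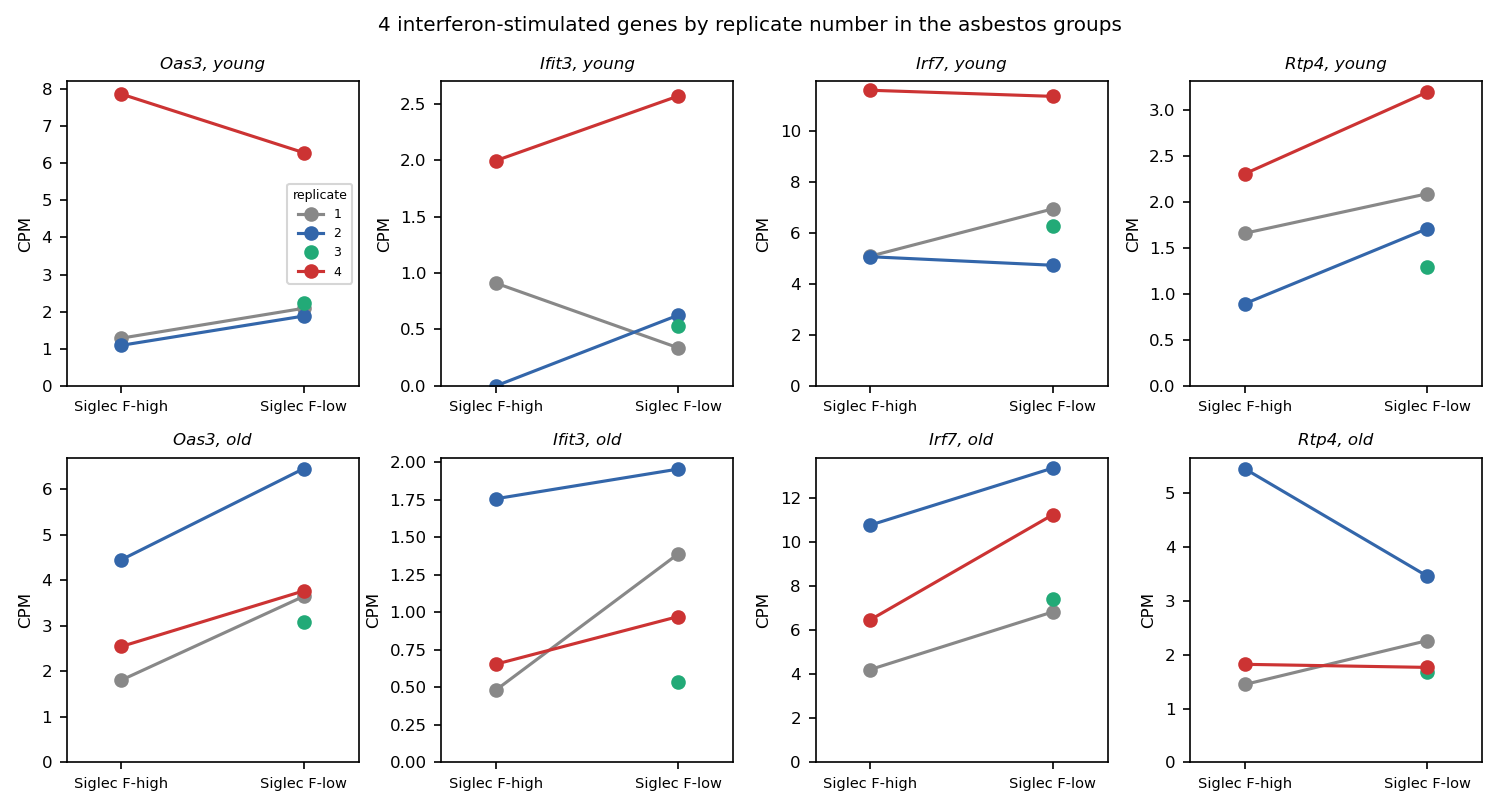
CPM of Oas3, Ifit3, Irf7 and Rtp4 in the Siglec F-high and Siglec F-low sorts of young (top) and old (bottom) asbestos mice, with lines joining equal replicate numbers, which the labels do not tie to an animal. Young replicate 4 and old replicate 2 stand highest in both sorts, and the poor replicate 3 of Siglec F-high is left out.

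Over all 9 comparisons and both sets of libraries, 12 of the 38 genes were called at least once by edgeR without a replicate block and 26 were not. How many of all genes tested were called at least once was not counted. The 12 of 38 therefore has no background beside it, and single comparisons called up to 12% of all genes. The 26 include all 3 IFIT genes, Mx1, Mx2, Rsad2, Cmpk2, Isg15 and the transcription factors Irf7, Irf9 and Stat2. Stat2 and Irf9, which are parts of the factor that binds the response element, stood at 38.1 to 59.1 CPM and 17.6 to 28.9 CPM over the 22 libraries. The ADP-ribosyltransferases Parp9 and Parp14 and the ubiquitin ligase Dtx3l, a partner of Parp9, stood at 34.9 to 51.5, 48.9 to 68.2 and 32.2 to 54.0 CPM. These genes were well counted, and their highest library was less than 2 times their lowest. Igtp stood at 8.33 to 13.9 CPM, Zbp1, a sensor of Z-form nucleic acid, at 7.80 to 14.7 CPM, Ifi35 at 20.3 to 35.2 CPM and Xaf1 at 1.82 to 4.45 CPM.

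The genes upstream of this response were taken from separate lists. Of 11 interferon ligands and receptors only the 5 receptor genes with enough counts were tested. Ifnl2 and Ifnl3 were at 0 in every library, Ifnb1 was detected in 1 of 24 libraries at 0.117 CPM, and Ifng did not exceed 1.11 CPM. With 22 libraries Ifngr1, a chain of the interferon-gamma receptor, was lower in old mice in both the naive (-0.33 ± 0.09, edgeR adjusted p 0.0231) and asbestos Siglec F-high sorts (-0.53 ± 0.10, 0.00226). Its partner Ifngr2 was higher in Siglec F-low, at 100.3 ± 4.40 against 69.9 ± 2.55 CPM (SD, n = 4 and 3) in young mice. With 24 libraries 0 of the 5 were called in any of the 7 comparisons by edgeR.

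Of 9 signalling genes 1 was called between the sorts with 24 libraries in each age, where 4.99% (young) and 4.3% (old) of all genes were. It was Socs3, an inhibitor of JAK kinases, which rose from 30.7 ± 3.74 to 65.8 ± 18.4 CPM in young mice (SD, n = 4; log2 fold change 1.10 ± 0.20, edgeR adjusted p 0.00155) and from 34.5 ± 1.82 to 112 ± 20.4 CPM in old mice (1.69 ± 0.21, 3.03e-05). The kinases Jak1 and Tyk2 were among the 8 not called. Of the 17 tested genes of interferon induction, Ikbke, the kinase that phosphorylates Irf3 and Irf7, was called in 3 comparisons with 24 libraries, where 2.03%, 4.76% and 4.99% of all genes were. It was higher in old naive (1.11 ± 0.24, 0.0121), in old asbestos Siglec F-high (1.20 ± 0.25, 0.00637) and in young Siglec F-low cells (1.26 ± 0.24, 0.00227).

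Of 58 further interferon-induced genes 51 were tested. Between the sorts 2 of 51 were called in each age with 24 libraries, near or under the 4.99% (young) and 4.3% (old) of all genes: Ifitm2, an inhibitor of virus entry, was higher in Siglec F-low (1.01 ± 0.18 in young, edgeR adjusted p 0.000936; 0.85 ± 0.18 in old, 0.00628), and Gbp8 was lower (-0.80 ± 0.17, 0.00488; -0.93 ± 0.17, 0.00210). In old asbestos Siglec F-high cells the chemokine gene Cxcl9 stood at 6.09 ± 2.32 CPM against 1.68 ± 1.32 CPM in young (SD, n = 4; 1.88 ± 0.49, 0.0304). The medians of the 51 genes with 22 libraries lay between -0.08 and 0.13 in the 7 comparisons. With 22 libraries 7 of 51 were called higher and 0 lower in old naive mice, where 8.03% of all genes were called; among the 7 are Nlrc5, Cxcl9 and Cd274. The calls of Socs3, Ikbke, Ifitm2, Gbp8 and Cxcl9 given with 24 libraries also passed with 22, in the same direction.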

How the data were processed

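RNA-seq counts per gene were deposited by the authors for 24 libraries of sorted alveolar macrophages (polyA libraries, per the labels' protocols). Per the submitters' processing notes, the tools were bcl2fastq 2.19.1, FastQC, Trimmomatic 0.36, STAR 2.6.0 and HTSeq 0.11.2 on mm10; the annotation and the strand setting are not given in the sources used here. Reads of near-identical family members, and of the 7 genes that overlap another annotated gene, could have been dropped or misassigned. IDs were matched to GENCODE M21 (42462 of 43430 matched).

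The counts were analysed with edgeR 4.0.16 (R 4.3.3): TMM factors, genes kept by filterByExpr (minimum count 10, total 15), 1 term per group, quasi-likelihood test, Benjamini-Hochberg adjustment over all genes tested, calls at an adjusted p under 0.05. CPM are TMM-scaled from all 24 libraries. The script was tested on simulated data, with 200 of 13467 genes changed between the young sorts. At a log2 fold of 1 it recovered 69.5% of these with 24 libraries and 54% with 22. At 0.5 it recovered 0% and 2%, with 0% and 20% false among the calls. The simulated spread was set alike for every gene, so these shares do not carry over to single genes. Genes were named as called members with 24 or 22 libraries, up to 6 of smallest p in each direction, and the 3 of smallest p in an interaction; reference genes and listed pathway genes were added. Alternatives were 22 libraries, DESeq2 1.42.0, upper-quartile scaling, no filter, a replicate block and leaving out each library. The members and lists were chosen with earlier results of these data known.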

Additional observations from a re-analysis of the deposited data

Results flagged for a closer look

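In 20 genes and 120 groups of 4 libraries, 15 libraries stood apart from the other 3 of their group by Dixon's test. For genes chosen without regard to spread, about 6.0 would be expected by chance. The 20 genes were the 12 called with 24 or 22 libraries and the genes of widest within-group spread. That choice favours such flags, so the excess over 6.0 does not measure a departure from chance. Of the 15, 5 belong to the poor Siglec F-high libraries, replicate 3 of each asbestos group, and 10 to others.

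In the poor library of young mice, Irf1 (47.6 CPM, others 28.2 to 30.9), Bst2 (132.5 CPM, others 27.8 to 33.5) and Usp18 (3.96 CPM, others 0.199 to 0.686) stood high and Ifih1 (33.8 CPM, others 52.6 to 55.2) stood low. In that of old mice Ifih1 stood high, at 74.3 CPM against 45.6 to 49.5.

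Young asbestos replicate 4 stood high in Oas3 in both sorts (7.86 CPM in Siglec F-high, others 1.09 to 1.84; 6.28 CPM in Siglec F-low, others 1.88 to 2.24), in Ifit3 (2.57 CPM) and Mx2 (1.31 CPM) of Siglec F-low, and in Gbp3 (8.36 CPM) of Siglec F-high. Cmpk2 stood high in replicate 2 of old asbestos Siglec F-high, at 2.87 CPM against 0.817 to 0.873.

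The others were Ifi204 in young asbestos Siglec F-low replicate 2 (39.5 CPM, others 21.6 to 24.6), Trim25 in young asbestos Siglec F-low replicate 1 (370.5 CPM, others 298 to 301), Trim25 in young naive replicate 2 (419 CPM, others 658 to 706) and Gbp3 in old naive replicate 1 (9.32 CPM, others 6.79 to 6.85).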

How the results depend on the processing

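The number of genes called moved with the libraries kept and with the replicate block. In the order naive Siglec F-high age, asbestos Siglec F-high age, asbestos Siglec F-low age, young asbestos, old asbestos, young sort and old sort, the 24 libraries gave 0, 1, 0, 0, 0, 4 and 1 calls and the 22 libraries 3, 1, 0, 3, 1, 7 and 3. DESeq2 with 24 libraries gave 2 calls for young asbestos, 1 for old asbestos and 2 for the old sort. Over all 13467 genes tested it called 594, 248 and 924. Upper-quartile scaling gave 0 for asbestos Siglec F-high age and 2 for the old sort, and no filter on low counts gave 0 for asbestos Siglec F-high age and 1 for the young sort. The replicate block, with an effect for each number shared by all 6 groups, gave 3 for the old sort with 24 libraries. With 22 libraries it gave 3, 2, 1, 3, 1, 9 and 8 calls. Calls over all 13629 genes rose as well. With the block and 22 libraries they were 1476, 1347, 1240, 889, 725, 2440 and 1954, and without the block 1094, 997, 983, 690, 562, 1638 and 1578. For upper-quartile scaling, no filter and leaving out 1 library, the calls over all genes are not given here. Both interactions stayed at 0 calls under every alternative run. Leaving out 1 library each gave, in the same order, 0 to 0, 0 to 2, 0 to 0, 0 to 2, 0 to 0, 0 to 5 and 1 to 2 calls from the 24, and 0 to 6, 0 to 0, 0 to 1, 1 to 4, 0 to 1, 1 to 6 and 1 to 4 from the 22 (the latter chosen after seeing the data). Bst2 between the young sorts changed sign, to 0.44 with 22 libraries and 0.48 with the replicate block and 22 libraries, and reached 0.44 without young asbestos Siglec F-high replicate 3 against -0.66 at the lowest; the poor library holds 132.5 CPM of it. Outside the old asbestos sorts of the 22 libraries, the correlations of equally numbered libraries did not all exceed the limit of 0.1. In the young asbestos sorts of the 22 libraries they were 0.0854 to 0.319, against -0.248 to 0.089 for unequal numbers. There the block called the same 7 genes as the fit without it, and Samd9l and Dtx3l as lower in Siglec F-low. Depth limits most the 17 of 39 genes at a mean under 5 CPM. The median SE of the 38 genes between the young sorts was 0.33 on the log2 scale with 24 libraries and 0.20 with 22.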
